A study of Mus musculus with 7 samples.

Results

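Glycolysis was followed through 9 genes of its enzymes in mouse pancreatic islets. They are the phosphofructokinase genes Pfkl, Pfkm and Pfkp, the triose phosphate isomerase gene Tpi1, the dehydrogenase gene Gapdh, the phosphoglycerate kinase gene Pgk1, the phosphoglycerate mutase gene Pgam1 and the pyruvate kinase genes Pkm and Pklr. They were taken by gene symbol, from a list chosen with earlier results of these data known. All 9 were measured, out of 22180 genes tested. Islets of Gata6 flox/flox mice without Cre (control, 3 arrays) were compared with islets of Gata6 flox/flox;Pdx1-Cre mice (Gata6 KO, 4 arrays). Every animal carried the floxed alleles, and Pdx1-Cre acts in the epithelium of the developing pancreas, so acinar and ductal cells can carry the deletion too. The control animals had no Cre, so effects of Cre and of Gata6 cannot be told apart. Islets of 3 mice, 2 months old, were combined for each array, and the spread between arrays is that between such pools. Signals are given on the log2 scale, on which a difference of 1 is a 2-fold change.

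Glycolysis converts glucose to pyruvate in the cytosol and yields ATP and NADH. In beta cells the flux through it couples blood glucose to insulin release, and most of the pyruvate enters mitochondria while little becomes lactate. Phosphofructokinase commits sugar phosphates to the pathway, and its subunits are named for liver (Pfkl), muscle (Pfkm) and platelet (Pfkp). Pyruvate kinase makes the final ATP, in the M form from Pkm, found in most tissues, or the liver and red cell form from Pklr, a target of the glucose-responsive transcription factor ChREBP. Gapdh and several other glycolytic genes have processed copies elsewhere in the mouse genome, to which probes may also bind.

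Of the 9 genes, 2 were higher on the Gata6 KO arrays (Pgk1 and Pfkp) and 1 was lower (Gapdh) when limma's p, adjusted by the Benjamini-Hochberg method over all genes, had to lie under 0.05. Among all genes 24.7% passed this test, 17.4% higher and 7.36% lower, so 3 of 9 enzyme genes is a share near that of genes in general. Pgk1 rose 2.07-fold, and Gapdh fell, with its level 1.84-fold higher in the controls. Pfkp rose 1.67-fold with a call that most alternatives ended. The Pkm means were close (log2 difference -0.0060, 95% interval -0.57 to 0.56), and the Pklr difference missed the threshold (-0.56, 95% interval -1.02 to -0.10, adjusted p = 0.0695). The median log2 difference of the 9 genes was -0.0060, against 0.17 for all genes.

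That median of 0.17 shows that signals as deposited ran higher on the Gata6 KO arrays, and the direction of calls depends on the scaling. The array medians over all probe sets were 1.72 to 1.78 for the controls and 1.89 to 2.11 for the Gata6 KO group. Centring on them took off more than 0.17, as it moved the Pkm difference from -0.0060 to -0.25. With each array centred on its median, 7.85% of all genes were higher and 12.8% lower, 20.6% in all. Of the 9 genes, Pgk1 was then higher, and Gapdh and Pklr were lower.

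**Figure D1:**
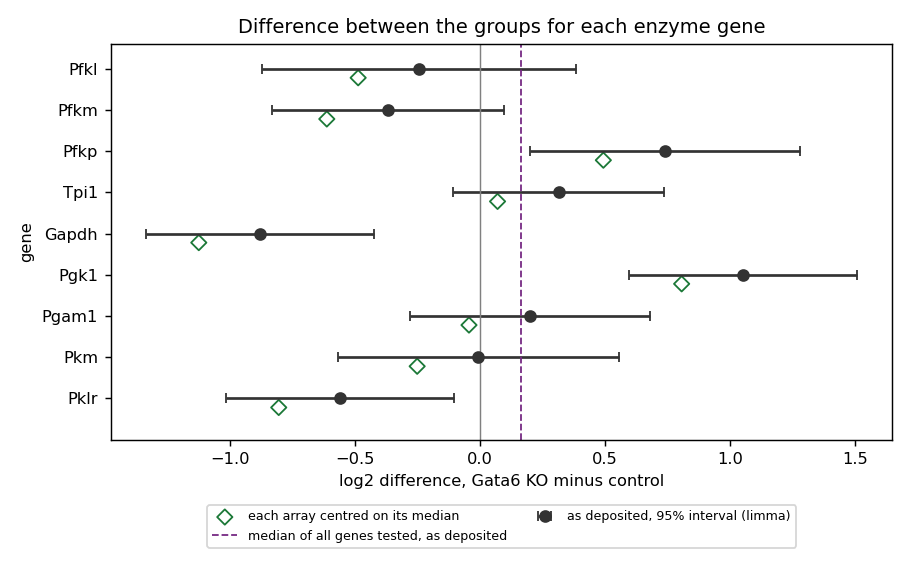
Difference between the groups for each enzyme gene, as the log2 difference of Gata6 KO minus control (filled points, with 95% intervals from limma) and after each array was centred on its median (open diamonds), with the median of all genes as a dashed line at 0.17. Pgk1 (1.05) and Pfkp (0.74) lie to the right, Gapdh (-0.88) and Pklr (-0.56) to the left, and the Pkm point lies at -0.0060.

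The promoter windows of 4 of these genes are shown because 3 of them passed the test and the fourth, Pklr, carries a known glucose-responsive element. The windows are from RefSeq, assembly GRCm38.p6, run from 250 bases before a transcription start to 50 after it, and are printed 5′ to 3′ on the strand of the gene. Capitals mark the searched motifs on either strand: ACGTG and GCGTG, cores of the hypoxia response element, the E-box CACGTG, which contains ACGTG, and the carbohydrate response element pattern, CACGNG and CNCGTG with any 5 bases between, which was added after the sequences were seen. The windows lie at chrX:106186850-106187149 (plus strand) for Pgk1, chr6:125165724-125166023 (minus strand) for Gapdh, chr13:6648722-6649021 (minus strand) for Pfkp and chr3:89136373-89136672 (plus strand) for Pklr, the second of 2 windows listed for Pklr.
Pgk1: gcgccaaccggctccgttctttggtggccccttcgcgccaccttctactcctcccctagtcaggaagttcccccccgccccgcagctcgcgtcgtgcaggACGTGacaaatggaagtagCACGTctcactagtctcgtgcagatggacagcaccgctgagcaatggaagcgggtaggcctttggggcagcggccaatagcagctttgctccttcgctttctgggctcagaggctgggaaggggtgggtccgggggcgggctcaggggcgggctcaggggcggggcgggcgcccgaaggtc
Gapdh: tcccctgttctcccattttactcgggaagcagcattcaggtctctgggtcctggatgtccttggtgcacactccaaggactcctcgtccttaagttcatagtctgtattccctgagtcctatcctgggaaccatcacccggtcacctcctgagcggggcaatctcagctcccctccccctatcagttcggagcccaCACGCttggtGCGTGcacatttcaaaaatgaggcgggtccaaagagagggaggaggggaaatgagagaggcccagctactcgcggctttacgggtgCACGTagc
Pfkp: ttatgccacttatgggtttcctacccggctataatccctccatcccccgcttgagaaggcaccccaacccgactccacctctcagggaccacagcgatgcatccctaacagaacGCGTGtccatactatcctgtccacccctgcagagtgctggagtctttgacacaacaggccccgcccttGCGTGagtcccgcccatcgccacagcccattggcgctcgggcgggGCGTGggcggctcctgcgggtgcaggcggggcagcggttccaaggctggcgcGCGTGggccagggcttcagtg
Pklr: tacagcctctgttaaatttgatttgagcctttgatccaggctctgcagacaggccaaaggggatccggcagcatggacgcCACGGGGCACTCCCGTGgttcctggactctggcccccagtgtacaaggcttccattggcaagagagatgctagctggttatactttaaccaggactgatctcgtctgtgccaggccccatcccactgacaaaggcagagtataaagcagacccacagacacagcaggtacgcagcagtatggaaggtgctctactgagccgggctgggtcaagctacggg

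Pgk1 holds ACGTG at 2 places, Pfkp holds GCGTG at 4, and Gapdh holds both cores. All 9 genes had a window, 14 in all. ACGTG was in 6 of these 14 windows, against 19.6% of 32851 windows of the same length. GCGTG was also in 6 of them, against 32.4%, but 2 of the 6 are overlapping Pfkm windows that share the same site. Each of these cores was in a window of 5 of the 9 genes. The share of all genes was not computed for this count, and Pfkm alone has 4 windows. CACGTG was in 1 window, of Pfkm, against 7.15%. The carbohydrate response element pattern was in 1, the Pklr window, as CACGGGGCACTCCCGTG, and in 15 of all 32851 windows. These matches describe letters in a window and not binding.

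The phosphofructokinase genes did not share 1 pattern. Pfkl (probe set 17242376) measured 4.09, 3.80 and 3.42 on control arrays 1 to 3 and 3.80, 3.67, 2.69 and 3.96 on Gata6 KO arrays 1 to 4. The groups overlapped, and only Gata6 KO array 3 lay below the controls. Its mean was 3.77 ± 0.34 (SD, n = 3) in the controls and 3.53 ± 0.57 (SD, n = 4) in the Gata6 KO group, a log2 difference of -0.24 (95% interval -0.87 to 0.39, adjusted p = 0.583). Without Gata6 KO array 3 the difference was 0.036. Pfkm (17314577) gave 3.49, 3.49 and 3.23 in the controls and 3.28, 3.19, 2.72 and 2.95 in the Gata6 KO group. Array 1 of the Gata6 KO group lay above control array 3, so these groups overlapped as well. The difference was -0.37 (95% interval -0.83 to 0.10, adjusted p = 0.233). It became -0.63 with an adjusted p of 0.0492 when quantile normalization was repeated.

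Pfkp (17290324) measured 3.86, 2.84 and 3.36 in the controls and 4.17, 4.35, 3.83 and 4.02 in the Gata6 KO group. The control values spread widely, and control array 1 lay just above the lowest Gata6 KO array. The means were 3.35 ± 0.51 (SD, n = 3) and 4.09 ± 0.22 (SD, n = 4), a log2 difference of 0.74 (SE 0.25, adjusted p = 0.0455 by limma). The call was lost in 11 of 19 alternatives, after centring (difference 0.49, adjusted p = 0.215) among them. It was also lost without control array 2 (0.48, adjusted p = 0.234), control array 3 (adjusted p = 0.108) or Gata6 KO arrays 1, 2 and 4 in turn (adjusted p = 0.0781, 0.111 and 0.0548).

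**Figure D2:**
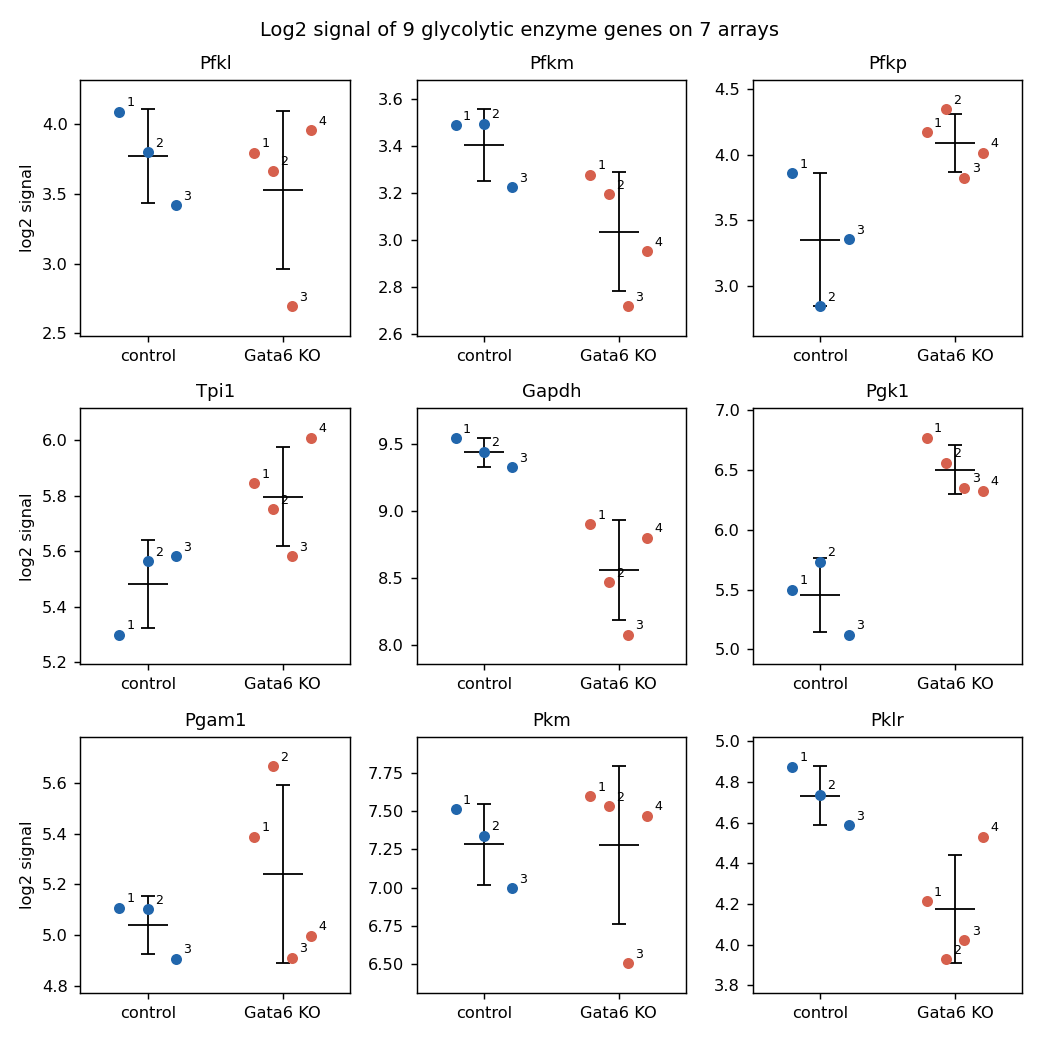
Log2 signal of each enzyme gene on each array, with the array number beside each point, the group mean as a horizontal line and bars of 1 SD (control, n = 3, Gata6 KO, n = 4). The axes differ between panels, because levels of different probe sets are not comparable. The groups are apart for Gapdh, Pgk1 and Pklr, and Gata6 KO array 3 is the lowest of its group in 7 panels.

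Tpi1, which interconverts the 2 triose phosphates (probe set 17470879), measured 5.30, 5.56 and 5.58 in the controls and 5.84, 5.75, 5.58 and 6.01 in the Gata6 KO group. The groups touched at control array 3 and Gata6 KO array 3. The log2 difference was 0.32 (95% interval -0.11 to 0.74, adjusted p = 0.263) and 0.07 after centring.

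Gapdh oxidises glyceraldehyde phosphate and reduces NAD, and its transcript is often used as a reference for loading. The probe set with the highest mean (17260881) measured 9.55, 9.45 and 9.33 in the controls and 8.90, 8.47, 8.07 and 8.80 in the Gata6 KO group. Every Gata6 KO array lay below every control array. The means were 9.44 ± 0.11 (SD, n = 3) and 8.56 ± 0.37 (SD, n = 4), a log2 difference of -0.88 (SE 0.21, adjusted p = 0.00837). The call held without any 1 array (adjusted p from 0.00595 to 0.045), and the difference was -1.12 after centring.

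The Gapdh result differed between probe sets, however. The annotation gives Gapdh alone to 3 probe sets. The first of the other two (17439361) measured 9.36, 9.23 and 9.15 in the controls and 8.51, 8.01, 7.68 and 8.36 in the Gata6 KO group, and it fell too (-1.11, SE 0.21, adjusted p = 0.00211). The last (17546512) measured 5.97, 6.52 and 5.87 in the controls and 6.98, 6.76, 6.89 and 6.74 in the Gata6 KO group, and it rose (0.72, SE 0.21, adjusted p = 0.0207). With the mean of the 3 in place of the brightest, the difference was -0.42 and did not pass (adjusted p = 0.13). Another 8 probe sets list Gapdh beside a second symbol, Gm12070 for 7 and Gapdh-ps15 for 1, and were left out of the gene table. The 7 with Gm12070 were lower (log2 differences from -1.34 to -1.17, with p adjusted over all probe sets), although 2 of the 7 hold identical values. The one with Gapdh-ps15 was dim in both groups, 1.51 ± 0.06 (SD, n = 3) and 1.29 ± 0.46 (SD, n = 4), and did not pass (adjusted p = 0.592).

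Probe sets are numbered along the chromosomes, and the numbers bear on which copy a probe set was designed for. For 7 of the 9 genes all of the nearest probe sets whose gene RefSeq places, at most 20, lay on the chromosome of the enzyme gene itself. Gapdh is on chromosome 6, but the 20 neighbours lay on chromosome 11 for the brightest probe set, on chromosome 5 for the next and, for 17 of 20, on chromosome Y for the dimmest. The probe set with Gapdh-ps15 is the one numbered beside Ncapd2 on chromosome 6. The neighbours of the Pgam1 probe set in use were on chromosome 3, while Pgam1 is on chromosome 19. How far each of these probe sets reads the parent transcript was not tested.

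Pgam1 moves the phosphate from carbon 3 to carbon 2 of phosphoglycerate. The probe set in use (17404152) measured 5.11, 5.10 and 4.91 in the controls and 5.39, 5.67, 4.91 and 4.997 in the Gata6 KO group. Its groups overlapped, with a log2 difference of 0.20 (95% interval -0.28 to 0.68, adjusted p = 0.547). The other one (17359466), whose neighbours lie on chromosome 19 beside Frat1 and Ubtd1, measured 3.63, 4.66 and 4.91 in the controls and 2.99, 3.68, 3.83 and 3.84 in the Gata6 KO group. Control array 1 lay within the Gata6 KO values there, and the difference pointed down (-0.82, SE 0.31, adjusted p = 0.0662). Neither passed the test, and the sign of the Pgam1 difference depends on the choice.

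**Figure D3:**
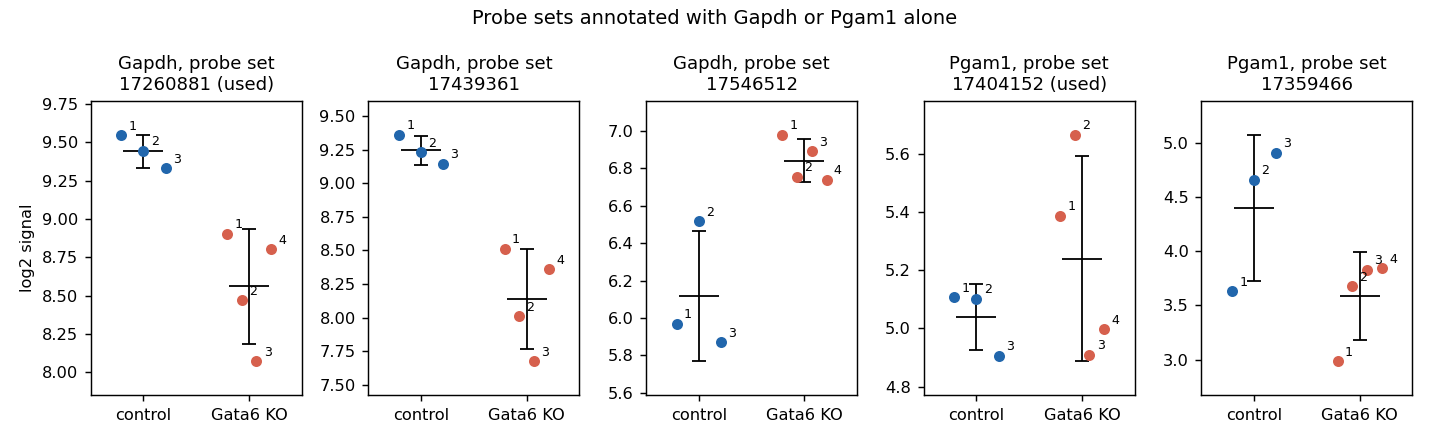
Log2 signal of the 5 probe sets annotated with Gapdh alone or Pgam1 alone on each array, with array numbers, group means and bars of 1 SD (control, n = 3, Gata6 KO, n = 4). Both bright Gapdh probe sets are lower in the Gata6 KO group (-0.88 and -1.11) and the dimmer one is higher (0.72), while the Pgam1 probe sets point in opposite directions (0.20 and -0.82).

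Pgk1 makes the first ATP of the pathway and lies on the X chromosome. Its probe set (17537088) measured 5.50, 5.73 and 5.12 in the controls and 6.77, 6.56, 6.35 and 6.33 in the Gata6 KO group. All Gata6 KO arrays lay above all control arrays. The means were 5.45 ± 0.31 (SD, n = 3) and 6.50 ± 0.21 (SD, n = 4), a log2 difference of 1.05 (SE 0.21, adjusted p = 0.00289), or 0.81 after centring (adjusted p = 0.0312). It passed in all 19 alternatives, with adjusted p from 0.00139 to 0.0312. Since Pgk1 is X-linked, the arrays were also compared by Xist, the RNA of the inactive X in females. Xist was low on control array 3 and Gata6 KO array 3 (1.34 and 2.15) and between 5.02 and 5.60 on the other arrays. With this class as a block the Pgk1 difference was 1.02 (adjusted p = 0.00242), and on the 5 arrays with high Xist alone it was 0.94 (adjusted p = 0.021). Gapdh passed in the same settings (-0.91, adjusted p = 0.00352, and -0.77, adjusted p = 0.0299).

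The pyruvate kinase genes come last in the pathway. Pkm (17518007) measured 7.51, 7.34 and 6.996 in the controls and 7.60, 7.53, 6.51 and 7.47 in the Gata6 KO group. Gata6 KO arrays 1, 2 and 4 lay within or just above the control range, and array 3 lay below it. Leaving out array 3 moved the difference from -0.0060 to 0.25 (adjusted p = 0.385). Pklr (17399266) measured 4.87, 4.74 and 4.59 in the controls and 4.21, 3.93, 4.02 and 4.53 in the Gata6 KO group. Its groups did not overlap, with Gata6 KO array 4 just below the lowest control. The means were 4.73 ± 0.14 (SD, n = 3) and 4.17 ± 0.27 (SD, n = 4). The Pklr difference of -0.56 (SE 0.21) did not pass in 14 of 19 alternatives, with adjusted p up to 0.215 (limma). It passed after centring (-0.80, adjusted p = 0.0205), with quantile normalization repeated (-0.73, adjusted p = 0.0185), with array weights (-0.63, adjusted p = 0.0262) and without Gata6 KO array 4 (-0.68, adjusted p = 0.0285). With the replicate number as a block, a fit that also leaves out Gata6 KO array 4, the difference was the same (-0.68, adjusted p = 0.0292). Separate groups were thus found for 3 of 9 enzyme genes (34.3% of all genes), 1 of them higher (24.4%) and 2 lower (9.96%) in the Gata6 KO group.

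Differences between isozyme genes within an array do not depend on how arrays are scaled by a constant, and 4 such pairs can be formed. Pkm minus Pklr was 2.64, 2.60 and 2.41 in the controls and 3.38, 3.61, 2.48 and 2.94 in the Gata6 KO group. It was larger on 3 of the 4 Gata6 KO arrays than on any control array, but the group difference of 0.55 did not pass (exact two-sided permutation test, p = 0.171, adjusted p = 0.229 over 4 pairs). Pfkm minus Pfkp was -0.37, 0.65 and -0.13 in the controls and -0.89, -1.16, -1.11 and -1.07 in the Gata6 KO group. Those groups were apart, with a difference of -1.11 (exact p = 0.0286, the smallest that 35 splits of 7 arrays allow, adjusted p = 0.114). Pfkl minus Pfkp differed by -0.98 (exact permutation p = 0.0571, adjusted p = 0.114) and Pfkl minus Pfkm by 0.13 (exact permutation p = 0.686). No pair therefore passed after adjustment. A lone pair at the smallest possible exact permutation p reaches only an adjusted p of 0.114 over 4 pairs. For any pair to pass, at least 3 of the 4 would have to reach that smallest p. Pfkp enters only Pfkl minus Pfkp and Pfkm minus Pfkp, so the test could not pass a shift of Pfkp alone.

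**Figure D4:**
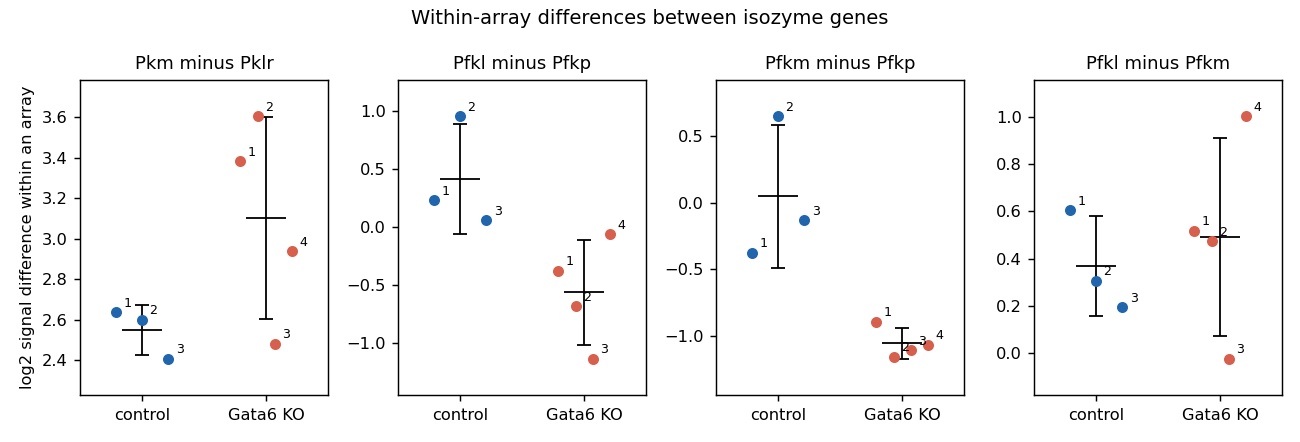
Within-array log2 differences of 4 isozyme pairs on each array, with array numbers, group means and bars of 1 SD (control, n = 3, Gata6 KO, n = 4). Pfkm minus Pfkp lies between -1.16 and -0.89 on the Gata6 KO arrays and at or above -0.37 on the control arrays, and Pkm minus Pklr is lowest in the Gata6 KO group on array 3 (2.48).

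Across the 9 genes, Gata6 KO array 3 gave the lowest value of its group for 7, while it was lowest for 28.5% of all genes. Control array 3 was likewise lowest in its group for 7 of the 9, against 33% of all genes. These are also the arrays with low Xist. Both were the lowest for Pfkl, Pfkm, Gapdh, Pgam1 and Pkm, against 10.6% of all genes. Both arrays also had the lowest mean of the beta-cell markers in their groups (8.23 for control array 3 and 5.35 for Gata6 KO array 3). The same held for the alpha, delta and PP cell markers (8.24 and 5.23). The part of these markers in the low values was not tested.

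Genes with the pattern most like that of each called enzyme were sought among 18761 named genes, as the smallest root mean square distance over the 7 arrays between deviations from the control mean. Pgk1 was closest to Rpia, a pentose phosphate enzyme gene (distance 0.088, log2 difference 1.08), and to Mpzl2 (0.096, difference 1.14). Gapdh was closest to the splicing factor gene Sfpq (0.080, difference -0.88) and the tight junction gene Cldn7 (0.083, difference -0.82). For Pfkp they were Vma21, an assembly factor of the proton pump (0.14, difference 0.65), and the interferon receptor gene Ifnar2 (0.15, difference 0.65). The closeness follows from the choice of the nearest genes among many.

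Other genes of the pathway were measured for 18 of 24 names, and the rest are not analysed here. Of these 18, 6 rose and 1 fell, where 17.4% of all genes rose and 7.36% fell. After centring 3 rose and 1 fell, against 7.85% and 12.8% of all genes. The median log2 difference of the 18 was 0.27 against 0.17 for all genes. Bpgm, which makes the haemoglobin ligand bisphosphoglycerate from the substrate of Pgk1, rose most, from 2.26 ± 0.16 (SD, n = 3) to 4.34 ± 0.31 (SD, n = 4), a log2 difference of 2.08 (SE 0.22, adjusted p = 2.43e-05). Hk2 and Hk3, hexokinases that beta cells keep low, rose by 1.07 (SE 0.22, adjusted p = 0.00297) and 1.01 (SE 0.20, adjusted p = 0.00266), with Hk3 at only 1.36 ± 0.07 (SD, n = 3) in the controls. Adpgk, which phosphorylates glucose with ADP, rose by 0.89 (adjusted p = 0.00892, and 0.0686 after centring). Hk1 rose by 0.82 (adjusted p = 0.0288), a call that was lost after centring (adjusted p = 0.146) and without each of the control arrays (adjusted p = 0.111, 0.0502 and 0.0919) and Gata6 KO arrays 1 and 2 (0.0648 and 0.0689). Pfkfb3, which makes the activator of phosphofructokinase, rose by 0.76 (adjusted p = 0.0224) from a control mean of only 1.58. The control array medians over all probe sets were 1.72 to 1.78. The Pfkfb3 call was lost after centring (0.103) and without control array 1, control array 3 or Gata6 KO array 2 (0.071, 0.0916 and 0.0503). Its islet-expressed relative Pfkfb2 had a difference of -0.45 (adjusted p = 0.237, and 0.04 without control array 3). The neuronal and endocrine enolase gene Eno2 fell by 1.43 on the log2 scale (SE 0.28, adjusted p = 0.0022).

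**Figure D5:**
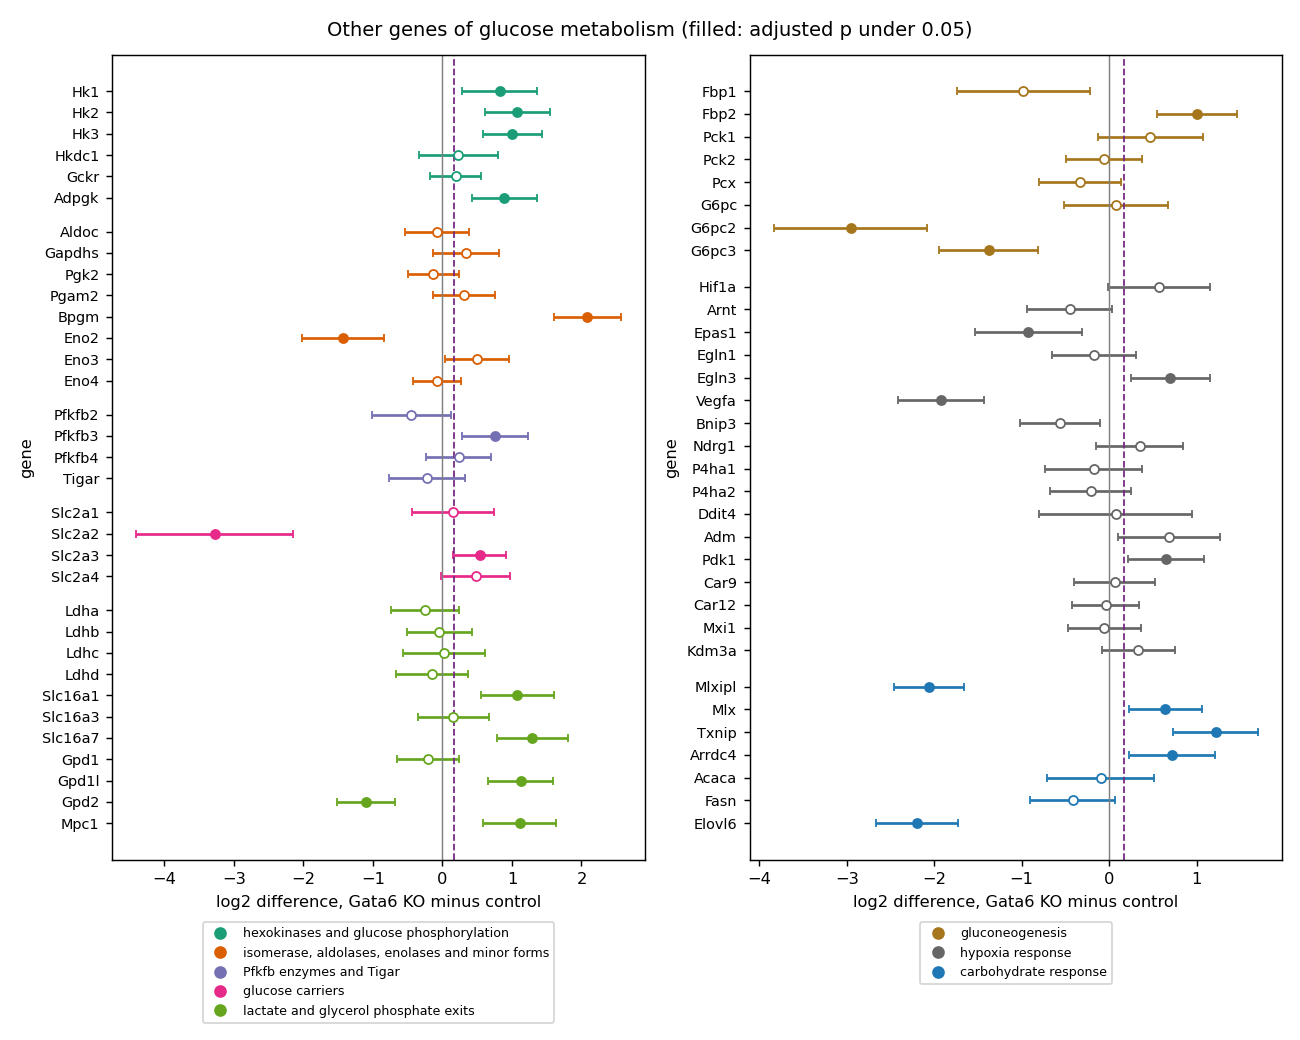
Log2 difference of Gata6 KO minus control with 95% intervals (limma) for other genes of glucose metabolism, coloured by list and filled where the adjusted p is under 0.05. The dashed line is the median of all genes at 0.17, Bpgm lies farthest to the right (2.08) and Slc2a2 farthest to the left (-3.27).

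Entry and exit steps around the 9 enzymes changed in both directions. Of 4 glucose carriers, Slc2a2, the GLUT2 carrier of mouse beta cells, fell by 3.27 on the log2 scale (SE 0.53, adjusted p = 5.86e-04). Slc2a3 was higher by 0.53 from a control mean of only 1.25 (adjusted p = 0.0448, and 0.299 after centring). The Slc2a3 call was lost without any 1 array other than Gata6 KO array 4, at adjusted p from 0.0692 to 0.16. Of 11 genes around lactate, pyruvate and glycerol phosphate, 4 rose and 1 fell, as deposited and after centring. Among all genes 17.4% rose and 7.36% fell as deposited, and 7.85% and 12.8% after centring. The monocarboxylate carriers Slc16a7 and Slc16a1 rose by 1.30 (SE 0.24) and 1.08 (SE 0.24), and the mitochondrial pyruvate carrier subunit Mpc1 rose by 1.11 (SE 0.24). Gpd1l rose by 1.13 (SE 0.22), while the mitochondrial glycerol phosphate dehydrogenase gene Gpd2, part of the shuttle that returns cytosolic NADH electrons, fell by 1.10 on the log2 scale (SE 0.20). The lactate dehydrogenase gene Ldha, low in beta cells, was at 2.09, 2.26 and 2.77 in the controls and 2.17, 2.25, 2.25 and 1.80 in the Gata6 KO group (adjusted p = 0.444). Of 8 gluconeogenesis genes, G6pc2 and G6pc3, which remove phosphate from glucose 6-phosphate, fell by 2.96 (SE 0.41) and 1.38 (SE 0.26) on the log2 scale, and the muscle fructose bisphosphatase gene Fbp2 rose by 1.00 (SE 0.21).

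Regulators of glycolytic genes were set beside them. Mlxipl, which encodes ChREBP, measured 5.39, 5.41 and 5.43 in the controls and 3.41, 3.32, 3.33 and 3.34 in the Gata6 KO group. It fell by 2.06 on the log2 scale (SE 0.19, adjusted p = 7.31e-06), with very little spread in either group. Its partner Mlx was higher by 0.64 (adjusted p = 0.027, 0.212 after centring, 0.093 without control array 2, 0.107 without control array 3 and 0.0639 without Gata6 KO array 2). Of 7 carbohydrate response genes 3 rose and 2 fell, or 1 and 2 after centring. The shares of all genes were 17.4% and 7.36% as deposited, and 7.85% and 12.8% after centring. The fatty acid elongase Elovl6 fell by 2.20 on the log2 scale (SE 0.22) like Mlxipl, whereas Txnip rose by 1.22 (SE 0.23). Arrdc4 was also higher, by 0.72 (adjusted p = 0.0351, 0.213 after centring, and from 0.0541 to 0.162 without Gata6 KO arrays 1, 2 and 3 or control arrays 1 and 2 in turn). Of 17 hypoxia response genes 2 rose and 2 fell, or 0 and 3 after centring, with a median difference of -0.037 as deposited. Vegfa, a target of hypoxia-inducible factors, fell by 1.92 on the log2 scale (SE 0.23), and the factor gene Hif1a did not pass (0.57, adjusted p = 0.145). Epas1 (-0.92, adjusted p = 0.0298), Egln3 (0.70 from a control mean of only 0.94, adjusted p = 0.0253) and Pdk1 (0.65, adjusted p = 0.0313) passed. Each of these calls was lost without several single arrays, with adjusted p up to 0.109, 0.149 and 0.125. After centring, the calls of Egln3 and Pdk1 were lost too (adjusted p = 0.123 and 0.217), and that of Epas1 held (0.0188). With the mean of all Pdk1 probe sets the Pdk1 difference was 0.32 and did not pass (adjusted p = 0.267).

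The tissue label and the target gene were checked on the same arrays. Beta-cell markers were lower for 12 of 13 measured and higher for 1, with list means of 8.23 to 8.83 on the control arrays and 5.35 to 6.85 on the others, and alpha, delta and PP cell markers were lower for 6 of 8 (8.24 to 8.50 against 5.23 to 7.11). Acinar markers were higher for 11 of 17, at 10.06 to 10.16 in the controls and 10.94 to 11.07 in the Gata6 KO group, so every array carried acinar RNA. Markers were higher for 9 of 12 mesenchymal genes (3.11 to 3.94 against 3.87 to 5.53), 5 of 9 lymphoid genes (1.74 to 1.82 against 2.60 to 3.33) and 3 of 10 myeloid genes (2.67 to 2.92 against 2.95 to 4.19). They were lower for 4 of 10 endothelial genes (4.64 to 5.08 against 3.79 to 4.49), higher for 2 and lower for 1 of 6 ductal genes (4.02 to 4.45 against 4.30 to 4.72), and the 1 red blood cell gene did not pass. The mesenchymal and ductal ranges overlapped between the groups. Among all genes 17.4% were higher and 7.36% lower. After centring, 8 acinar, 6 mesenchymal, 3 lymphoid, 2 myeloid and 1 ductal gene were higher (7.85% of all genes). Then 12 beta-cell, 7 alpha, delta and PP cell, 6 endothelial and 1 ductal gene were lower (12.8% of all genes).  The part of these cell types in the enzyme values was not tested, and in such bulk RNA fewer cells of a type and less RNA per cell cannot be told apart. The Gata6 signal was 4.74 ± 0.12 (SD, n = 3) in the controls and 5.28 ± 0.18 (SD, n = 4) on arrays labelled Gata6 KO, a difference of 0.54 that did not pass (adjusted p = 0.0622) and was not negative. It was 0.29 after centring (adjusted p = 0.39) and 0.34 with quantile normalization repeated (adjusted p = 0.236), and it passed without Gata6 KO array 4 (0.62, adjusted p = 0.0333). Directions here therefore rest on the labels, and the place of the probes relative to the deleted exons was not analysed here.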

How the data were processed

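Gene expression in islets was measured on 7 Affymetrix whole-transcript arrays from 250 ng of total RNA each. The authors deposited log2 values after RMA, per the submitters' processing notes, which also name Transcriptome Analysis Console; versions and genome build are not given in the sources used here. RMA log2 differences of low signals are compressed, and no detection calls were used. Of 41345 probe sets 23521 had 1 gene symbol in the platform annotation, and per gene the one with the highest mean was used, which gave 22180 genes. Names and neighbouring genes came from RefSeq (GRCm38.p6). The group difference was fitted per gene by limma 3.58.1 under R 4.3.3 (lmFit, eBayes with trend, no covariate) with Benjamini-Hochberg adjustment over all genes, at 0.05, after the fit was tested on simulated data. The within-array differences of the 4 isozyme pairs were tested by exact two-sided permutation, with Benjamini-Hochberg adjustment over the 4 pairs. The number of arrays limits the precision.

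The enzyme genes and gene lists were chosen with earlier results of these data known. The rule named the 9 enzymes, Gata6, the called genes and the 2 of smallest p in each metabolic list, the 2 brightest markers of each cell type list, which are given here as lists only, and the 2 genes nearest in pattern to each called enzyme. Ldha and Hif1a were added after their values were seen. Alternatives were other scaling, filters, probe sets, variance models, weights, thresholds, blocks and leaving out arrays. The 5 arrays with high Xist and the other Gapdh and Pgam1 probe sets were added after the data were seen. Figures used matplotlib 3.10.9.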

Additional observations from a re-analysis of the deposited data

Results flagged for a closer look

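Among the 4 Gata6 KO arrays, 3 values stood far from the others by Dixon's test, out of 47 sets of values tested, where chance gives about 1 in 20. The Pkm value of array 3 was 6.51, below the other 3 arrays. The Hk2 value of array 3 was 3.68, above the others. The Gata6 value of array 4 was 5.01, below the others.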

How the results depend on the processing

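The direction and call of Pgk1 were the same in all 19 alternatives, and those of Gapdh in 18 of 19. These 19 do not include the use of another probe set in place of the brightest, and the third Gapdh probe set reversed the direction. Counts of enzyme genes are small and moved by 1 or 2. With each array centred on its median, 1742 genes were higher and 2831 lower, against 3853 and 1633 as deposited, with 1 enzyme gene higher and 2 lower and 3 other glycolysis genes higher. With quantile normalization repeated, 2018 genes were higher and 2892 lower, with 1 enzyme gene higher and 3 lower. At an adjusted p under 0.01, 1855 genes were higher and 942 lower, with 1 enzyme gene higher. On the 5 arrays with high Xist 2231 genes were higher, with 1 enzyme gene and 3 other glycolysis genes among them. The Xist class as a block and the test over all probe sets each left 1 enzyme gene higher. Array weights gave 2 enzyme genes lower, and the mean of all probe sets 0 (limma, Gapdh at an adjusted p of 0.13). In that last fit 2 of the 9 were lower at an unadjusted p under 0.05, against 10.8% of all genes. Leaving out 1 array gave 2246 to 3812 genes higher and 1019 to 1801 lower, 1 to 2 enzyme genes in each direction, and 4 to 6 other glycolysis genes higher and 1 to 2 lower. Pgam1 changed sign after centring (-0.044), with quantile normalization (-0.0098), with the mean of its probe sets (-0.31) and with its other probe set (-0.82). The third Gapdh probe set gave 0.72. Pkm gave 0.023 with array weights, 0.11 with high Xist alone and -0.15 to 0.25 when 1 array was left out, but -0.25 after centring and -0.42 with quantile normalization (adjusted p = 0.574 and 0.188). Pfkl ranged from -0.42 to 0.036 and Pfkl minus Pfkm from -0.045 to 0.30 when 1 array was left out. The cause of these changes was not tested. Of the 32 called pathway and nearest genes, 19 kept their call in every alternative in which they were tested. Hk3 is among them, although the filter on the 40% lowest genes removed it and left 18 alternatives.

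Whether the replicate numbers of the titles pair the arrays is not settled. Correlations of same-numbered deviations were weak, at 0.098, 0.0043 and 0.11 for numbers 1, 2 and 3. Those of numbers 1 and 3 were the highest between any control and any Gata6 KO array. Control array 2 correlated best with Gata6 KO array 3 (0.022). The arrays numbered 3 also share low Xist. The replicate block on arrays 1 to 3 gave 3988 genes higher and 1949 lower, 2 enzyme genes higher and 2 lower, and a Pfkl minus Pfkm difference of -0.045. The number of arrays and low signals limit what can be detected.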
